A study of Bos taurus with 16 samples.

Results

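Bovine 8- and 16-cell embryos were compared with morulae in libraries made from single embryos that had developed in vivo. The 8 samples of this comparison, of 16 in the series, were chosen by their stage labels. The stages were used with 2 samples each (8-cell, 16-cell, early morula and compact morula), so that 4 samples stood on each side. The other 8 samples (MII oocytes, 2-cell and 4-cell embryos and blastocysts, 2 of each) served as reference levels. They also defined sets of loci and entered the alternative limma fits on all 16 samples. All were Bos taurus embryos with no treatment named in the labels, and RNA came from each embryo by itself. Nothing in the labels placed the embryos of a stage in separate animals, so p-values measure the spread between these samples.

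During cleavage the bovine embryo divides without growing and passes from stored maternal mRNA to transcripts of its own genome, a switch called embryonic genome activation (EGA), which in vivo falls at about the 4- to 8-cell stage. The morula then compacts. Its cells flatten against each other through E-cadherin, take on an apical and a basal side, and come to lie inside or outside. Hippo signalling reads that position through the cofactor YAP1. The outer cells become trophectoderm, the epithelium that pumps fluid into the blastocyst cavity, and the inner cells become the inner cell mass.

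The 8 samples held 607672 to 1805933 reads. Reads were found at 15505 of the 27393 loci listed (18318 in the whole series), and 5603 loci passed the filter on low counts and were tested. A locus could pass this filter through the samples of 1 period alone. Levels are given as normalised reads, the authors' read counts divided by a size factor for each sample. Log2 differences are morula minus 8- and 16-cell means on the log2(normalised reads + 1) scale, which understates the change of low genes. They carry the standard error of the limma fit. The counts were not divided by gene length, so levels were compared between samples and not between genes. In whole embryos, fewer cells of a kind and less RNA per cell cannot be told apart.

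Some libraries stood apart from the rest. The 8-cell replicate 2 correlated least with the others (Pearson r of 0.58 to 0.74 across the 5603 loci, with 0.693 to its own replicate), while the remaining pairs of one stage had r of 0.833 to 0.885. Compact morula replicate 1 was as close to 8-cell replicate 1 (r = 0.813) as to early morula replicate 2 (r = 0.817). The loci are not independent replicates, and these values describe the libraries. Counts for the gene groups below are therefore, for most groups, also given without 8-cell replicate 2, over the same loci. In that fit 6.8% of the 5603 loci were higher and 7.62% lower in morulae at an unadjusted p under 0.05, with a median of 0.067, and with all 8 samples 3.64% were higher and 4.41% lower. Markers of other cells were low: the summed level of markers of sperm, blood, and oviduct and uterine epithelium was at most 9.81 CPM (reads per 1000000 reads of the sample) for any list in any of the 8 samples. In the cumulus and granulosa list 5 of 11 markers had reads. The sum was carried by STAR, which regulates cholesterol import into mitochondria, at 406 to 1004 normalised reads in the 8 samples and 1075 to 2282 in MII to 4-cell samples. HAS2 and CYP19A1, which mark cumulus and granulosa cells, had means of 9.53 and 8.13 normalised reads in the 8- and 16-cell samples and of 0 and 0.277 in the morulae. Their part in the results was not tested.

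The first question was which transcripts separated cleaving embryos from morulae. No locus passed an adjusted p of 0.05 in limma (0 of 5603, 0%; the smallest adjusted p was 0.11). At an unadjusted p under 0.05, 451 loci (8.05%) differed, 204 higher in morulae (3.64%) and 247 lower (4.41%). In 150 loci (2.68%) every morula lay above every 8- and 16-cell sample, and in 123 loci (2.2%) every morula lay below, 273 in all (4.87%). edgeR on the recovered reads called 0 loci, with 462 at an unadjusted p under 0.05. DESeq2 called 62 (1.11%), of which 5 were higher in morulae (0.0892%) and 57 lower (1.02%). Limma fitted to all 16 samples called 46 of 9670 (0.476%), of which 9 were higher (0.0931%) and 37 lower (0.383%), and 20 of the 46 were too low for the filter on the 8 samples. The median difference of all loci was 0.12, and it was 0.44 when samples were scaled to their total reads. Leaving out 8-cell replicate 2, limma again called 0 loci of 6291, with 874 at an unadjusted p under 0.05 (13.9%), 409 higher (6.5%) and 465 lower (7.39%). The periods then did not overlap in 444 loci that were higher (7.06%) and 380 that were lower (6.04%).

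The direction of these loci was then read in samples that took no part in the comparison. The blastocyst mean was above the 4-cell mean in 111 of the 150 loci that were higher in morulae (74%), in 50 of the 123 that were lower (40.7%) and in 3422 of all 5603 tested (61.1%). The median blastocyst minus 4-cell difference was 1.20 for the higher loci, -0.74 for the lower loci and 0.65 for all. Loci with no gene name or only a LOC number made up 20.3% of the lower loci, 7.33% of the higher loci and 10.8% of all.

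Among the transcripts that were higher in morulae, WNT8A (XLOC_063275), a secreted WNT ligand, was the 1 locus called higher both by DESeq2 and by limma on all 16 samples. Its level was 5.40 and 1.15 normalised reads in 8-cell embryos and 13.1 and 1.62 in 16-cell embryos, and it was 37.9 and 42.6 in early morulae and 56.5 and 28.1 in compact morulae. Every morula was above every cleaving embryo, by 3.11 ± 0.66 on the log2 scale (SE, n = 4 and 4, limma adjusted p = 0.216). WNT8A passed the filter on low counts through the morulae, where it was high, so its calls are given as a description only. WNT8A had no reads in the 6 MII, 2-cell and 4-cell samples and 1.01 and 0 in the blastocysts, so that its reads lay almost wholly within these 4 stages.

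DUOXA2, the maturation factor of a hydrogen peroxide-producing oxidase, was at 7.21 and 31.0 in 8-cell embryos and at 0 in both 16-cell embryos. It was 29.4 and 39.5 in early morulae, 108.6 and 53.5 in compact morulae, and 2.03 and 1.58 in blastocysts. The periods overlapped because 8-cell replicate 2 lay above early morula replicate 1. The difference was 3.69 ± 1.01 (limma adjusted p = 0.367), and DUOXA2 was the 1 locus called when both 8-cell embryos were left out. DUOXA2 also passed the filter through the morulae, so this call is a description only.

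The 10 named loci with the lowest p among those that were higher without overlap were chosen after their values were seen. Beside WNT8A they were YPEL2, KRTCAP2, ENDOU, HMGN3, GRIN3A, MESDC2, CHSY1, QDPR and DBI, and each had a limma adjusted p of 0.278 or more. MESDC2, a chaperone that folds the LRP coreceptors of WNT signalling, was at 14.4 to 44.7 in the 4 cleaving embryos and at 61.0 to 102.0 in the morulae. KRTCAP2, a subunit of the enzyme that attaches sugars to new proteins, was at 9.18 to 21.6 and at 41.3 to 76.5.

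HMGN3, a nucleosome-binding protein, was at 14.6 to 22.9 in cleaving embryos, 44.3 to 76.5 in morulae and 1.58 to 3.04 in blastocysts. GRIN3A, a glutamate receptor subunit, was at 3.44 to 9.70, then 15.5 to 67.6, then 0 to 4.75. CHSY1, which builds chondroitin sulphate chains, was at 14.6 to 40.3, then 47.7 to 116.9, then 7.92 to 8.12. For YPEL2 the levels were 23.9 to 34.2, then 73.4 to 86.3, then 7.10 to 9.51. These 4 genes and WNT8A thus had their highest levels of the last 5 stages in morulae, with both blastocysts below every cleaving embryo for HMGN3, CHSY1 and YPEL2. They were picked from the 10 after their blastocyst levels were seen. How many of all the higher loci had this course was not counted.

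Levels that were lower in morulae were found at 20 loci by both DESeq2 and limma on all 16 samples, and the periods did not overlap in 19 of these. The 20 loci, named here after their values were seen, included 14 with a gene name. The 8-sample limma fit called none of them. Some of them, TTN, FAM208B and KDM1B included, passed the filter on 8 samples through the 8- and 16-cell embryos alone. Their calls are given as a description only. TTN, the gene of the giant muscle protein titin, had the largest difference: 59.5 and 115 normalised reads in 8-cell embryos and 26.1 and 38.8 in 16-cell embryos, against 5.41 and 1.17 in early morulae and 0 and 1.88 in compact morulae. All 4 morulae were below all 4 cleaving embryos (-4.38 ± 0.72, limma adjusted p = 0.11). Blastocysts were at 136 and 95.1.

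FAM208B was at 124, 97.5, 101 and 50.1 in the 8- and 16-cell samples and at 3.86, 21.9, 2.22 and 0.938 in the morulae (-4.13 ± 0.69, limma adjusted p = 0.11). ANKFY1, an endosomal protein that binds RAB5, was at 369, 241, 119 and 64.7 and then at 41.7, 21.1, 15.5 and 33.8 (-2.59 ± 0.56, limma adjusted p = 0.216). ANKFY1 had been at 19.1 to 43.0 in the MII to 4-cell samples, so that its high level was seen in the 8- and 16-cell stages alone. The chromatin remodelling factor CECR2 was at 57.7, 45.9, 188 and 58.2 and then at 2.32, 13.7, 2.22 and 16.9.

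Part of the 20 had higher levels still in earlier stages. In 10 of them the mean of the MII to 4-cell samples was above the mean of the 8- and 16-cell samples. The unnamed locus CUFF.80780.1 went from 2110 to 7542 normalised reads in MII to 4-cell samples to 86.5, 330.3, 78.4 and 114.8 in cleaving embryos and 10.05, 5.08, 25.5 and 11.3 in morulae. FAM46C, a cytoplasmic poly(A) polymerase, was at 477, 1696, 106 and 87.3 and then at 58.7, 34.8, 27.7 and 58.2. TCTN1, a protein of the ciliary transition zone, was at 72.1, 37.8, 34.8 and 98.6 and then at 13.1, 3.52, 16.6 and 3.75. LOC100296890 was the 1 of the 20 with no read before the 8-cell stage.

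Many of these loci had more reads again in blastocysts. The blastocyst mean was above the morula mean in 16 of the 20 loci, and both blastocysts were above all 4 morulae in 12. It was above the 8- and 16-cell mean in 4. Since the loci were chosen for low morula values, these counts describe them and are no test. SEMA4D, a membrane-bound semaphorin, was the clearest case, with 18.5 to 37.2 in cleaving embryos, 2.32 to 6.65 in morulae and 179 and 287 in blastocysts.

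**Figure D1:**
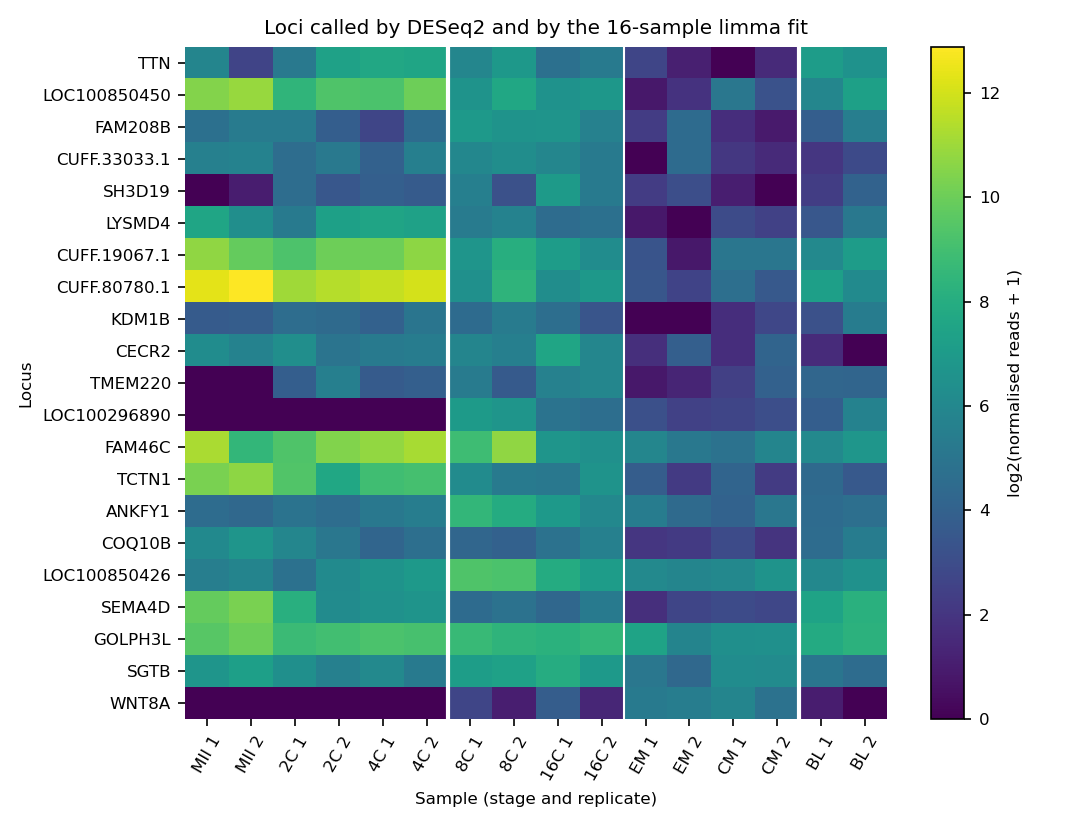
Level of the 21 loci called by both DESeq2 and the 16-sample limma fit (rows) in each of the 16 samples (columns; white lines bound the 8-cell to compact morula stages and the change of period), with colour for log2(normalised reads + 1). From TTN to SGTB the 4 morula columns are darker than the 4 columns before them, apart from the overlap of TMEM220, while WNT8A is brighter in the morulae.

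Stored RNA was followed with loci defined outside the 8 samples, as those with a mean of at least 100 normalised reads in MII to 4-cell samples and at least 10 times the blastocyst mean. These 376 loci took 4.37% and 10.9% of the reads in 8-cell embryos and 3.97% and 3.65% in 16-cell embryos. In early morulae they took 3.21% and 3.20%, and in compact morulae 2.99% and 3.15%. By share of reads every morula was thus below every cleaving embryo, and blastocysts, whose low levels were part of the definition of the set, were at 2.26% and 1.98%. In normalised reads the periods overlapped, with sums of 35830 to 130160 in cleaving embryos and 22618 to 41372 in morulae, since compact morula replicate 2 lay above 16-cell replicate 2. Of the 204 tested, 41 were lower in morulae (4.41% of all loci) and 4 higher (3.64%) at an unadjusted p under 0.05, with a median difference of -0.61 (0.12 for all loci). Leaving out 8-cell replicate 2, 33 of the 204 were lower and 8 higher (7.62% and 6.8% of all loci), with a median of -0.30.

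The opposite set held 388 loci with a blastocyst mean of at least 100 and at least 10 times the MII to 4-cell mean. It had already reached 21.3% and 15.8% of reads in 8-cell embryos and 20.5% and 18.9% in 16-cell embryos. The share was 21.0% and 19.4% in early morulae and 26.7% and 21.8% in compact morulae, so the periods overlapped. Of the 361 tested, 11 were higher (3.64% of all loci) and 7 lower (4.41%) at an unadjusted p under 0.05, and the median difference was 0.16. Without 8-cell replicate 2, 48 of the 361 were lower (7.62% of all loci) and 20 higher (6.8%), with a median of 0.034.

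**Figure D2:**
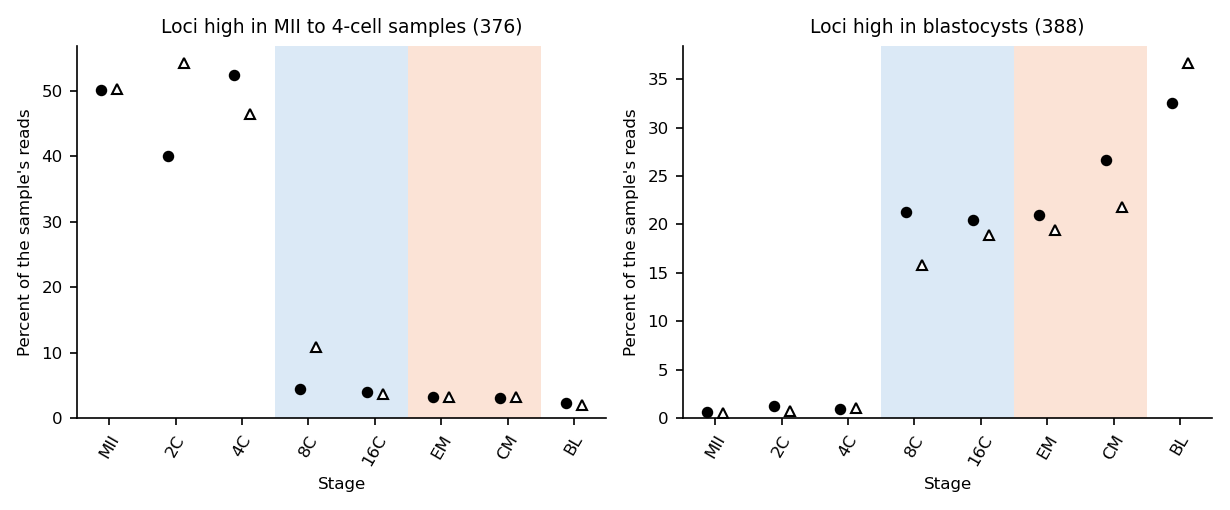
Share of each sample's reads, in percent, taken by 376 loci high in MII to 4-cell samples (left) and by 388 loci high in blastocysts (right), by stage. Filled circles are replicate 1 and open triangles replicate 2. The left share is at 40.0% to 54.3% up to the 4-cell stage and at 10.9% or less from the 8-cell stage on, and the right share is at 15.8% to 26.7% from the 8-cell to the compact morula stage.

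Oocyte genes were mostly too low to test (6 of 33 loci). The oocyte linker histone H1FOO was at 30.6 and 1606 normalised reads in 8-cell embryos, 5.44 and 3.23 in 16-cell embryos, and 11.3 to 34.4 in morulae, after 3197 to 23580 in MII to 4-cell samples. The 1606 normalised reads of 8-cell replicate 2 set the sign of its difference, which was -0.998 ± 1.43 (limma adjusted p = 0.865) and 0.85 without that embryo. GDF9, an oocyte growth factor, and NLRP5, a maternal-effect protein, were also highest in 8-cell replicate 2, at 20.6 and 17.2, and at most 4.43 in the other 7 samples. ZP3, a zona pellucida protein, was at most 3.52 in each of the 8 samples. BMP15 was listed at 0 in all 16 samples, oocytes included, which does not show that it was not transcribed.

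The genes known to be switched on with the embryonic genome summed to 157 to 557 CPM in MII to 4-cell samples and to 1541 to 5501 CPM in the 8 samples. DUXA, ARGFX, KLF17 and ZSCAN4 were at or near 0 before the 8-cell stage. DUXA, a double-homeobox factor (listed as LOC100297492), was at 14.4 and 221 in 8-cell embryos, 6.53 and 4.85 in 16-cell embryos, 68.8 and 32.1 in early morulae and 15.5 and 59.1 in compact morulae. ARGFX, a related homeobox factor, was at 72.1 and 226, then 31.6 and 6.47, then 98.2 and 93.1, then 51.0 and 95.7. Both had their lowest levels of these stages at the 16-cell stage. The Krüppel-like factor KLF17 was at 989 and 4271 in 8-cell embryos and 144 to 744 in the other 6 samples.

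None of the 10 tested members of this list passed an unadjusted p of 0.05 (limma, adjusted calls 0). The DUXA difference was 0.98 ± 0.97 and that of ARGFX 0.88 ± 0.81, and both were below 0 with DESeq2 (-0.57 and -0.057) and edgeR (-0.52 and -0.0025). Without 8-cell replicate 2 they were 2.15 ± 0.60 and 1.66 ± 0.64, the 2 of the 10 members higher in morulae at an unadjusted p under 0.05 there (background 6.8%). ZSCAN4 was at 1.56 to 19.6, too low to test. EIF1AX, a translation initiation factor, was at 1486 to 3739 in cleaving embryos and 769 to 3321 in morulae.

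Of 13 tested pluripotency factors, 0 passed an unadjusted p of 0.05 (limma), with a median of 0.44. With 8-cell replicate 2 left out, 1 of the 13 was higher (6.8% of all loci) and 0 lower (7.62%), and the median was 0.06. POU5F1, the central factor of the group, was at 8628 and 3252 in 8-cell embryos, 5066 and 3402 in 16-cell embryos, 2363 and 1847 in early morulae and 4709 and 6030 in compact morulae. The periods overlapped, and the early morulae were the lowest (-0.49 ± 0.53, limma adjusted p = 0.813). NANOG was at 7.21 and 84.9, then 4.35 and 0, then 20.9 and 30.5, then 7.76 and 12.2. With 8-cell replicate 2 left out its difference was 2.25 ± 0.84 in place of 1.10 ± 1.10. SOX2 was at most 13.3 in each sample.

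The hypoblast factor GATA6 was at 171, 119, 189 and 393 in cleaving embryos and 272 to 336 in morulae (0.59 ± 0.42, limma adjusted p = 0.733). PDGFRA, a receptor of the same lineage, was at 18.5 to 50.4 and then 51.0 to 70.8, without overlap by a narrow margin. It was the 1 of 8 tested hypoblast genes at an unadjusted p under 0.05 (3.64% of all loci were higher), and the median of the list was 0.68. Without 8-cell replicate 2 the median was 0.037, with 1 of the 8 higher (PDGFRA, beside 6.8% of all loci) and 1 lower (DAB2, beside 7.62%). In that fit the DAB2 difference was -1.67 ± 0.54 and that of PDGFRA 1.08 ± 0.44.

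Trophectoderm genes were mostly low in these stages, and 5 of 28 were tested. CDX2 had 1 read in 1 of the 8 samples, and KRT19, a keratin at 117 and 128 in blastocysts, was at most 4.59. TFAP2C, a transcription factor of the trophectoderm, was at 73.4 to 133 in cleaving embryos and 135 to 251 in morulae. IFNT2, an interferon tau gene whose reads may be shared with near-identical copies, was at 12.6, 9.18, 23.9 and 69.5 and then at 8.50, 6.26, 0 and 1.88. It was the 1 of 5 tested members past an unadjusted p of 0.05, beside 4.41% of all loci that were lower.

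Several of these genes were highest in the same embryos. GATA3, a trophectoderm factor, was at 9.01 and 3.44 in 8-cell embryos, 27.2 and 40.4 in 16-cell embryos, 0.773 and 0.391 in early morulae and 12.2 and 1.88 in compact morulae, against 182 and 149 in blastocysts. KRT8, a keratin of simple epithelia, was at 100 in 16-cell replicate 2 and at 31.0 in compact morula replicate 1, and at most 7.21 in the other 6 samples. Its partner KRT18 was at 112 and 55.4 in the same embryos and at most 16.3 elsewhere. DNMT3A, a DNA methyltransferase that was at 1074 and 762 in blastocysts, was at 96.9 and 188 in 16-cell embryos and 146 in compact morula replicate 1, and at 1.15 to 19.7 in the other 5. In both 8-cell embryos and both early morulae all 4 genes were at 18.4 or less.

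In the 7 samples other than 8-cell replicate 2, 2 of the 5 trophectoderm members were lower in morulae at an unadjusted p under 0.05 (IFNT2 and MSX2), beside 7.62% of all loci. GATA2 and GATA3 passed the filter only in those 7 samples, where the levels of the 8- and 16-cell embryos carried them over it, and were not counted. MSX2, a homeobox factor, was at 46.8, 2.29, 62.0 and 53.4 in cleaving embryos and at 5.41, 3.91, 31.0 and 9.38 in morulae. Again 8-cell replicate 2 stood with the morulae and compact morula replicate 1 above them.

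**Figure D3:**
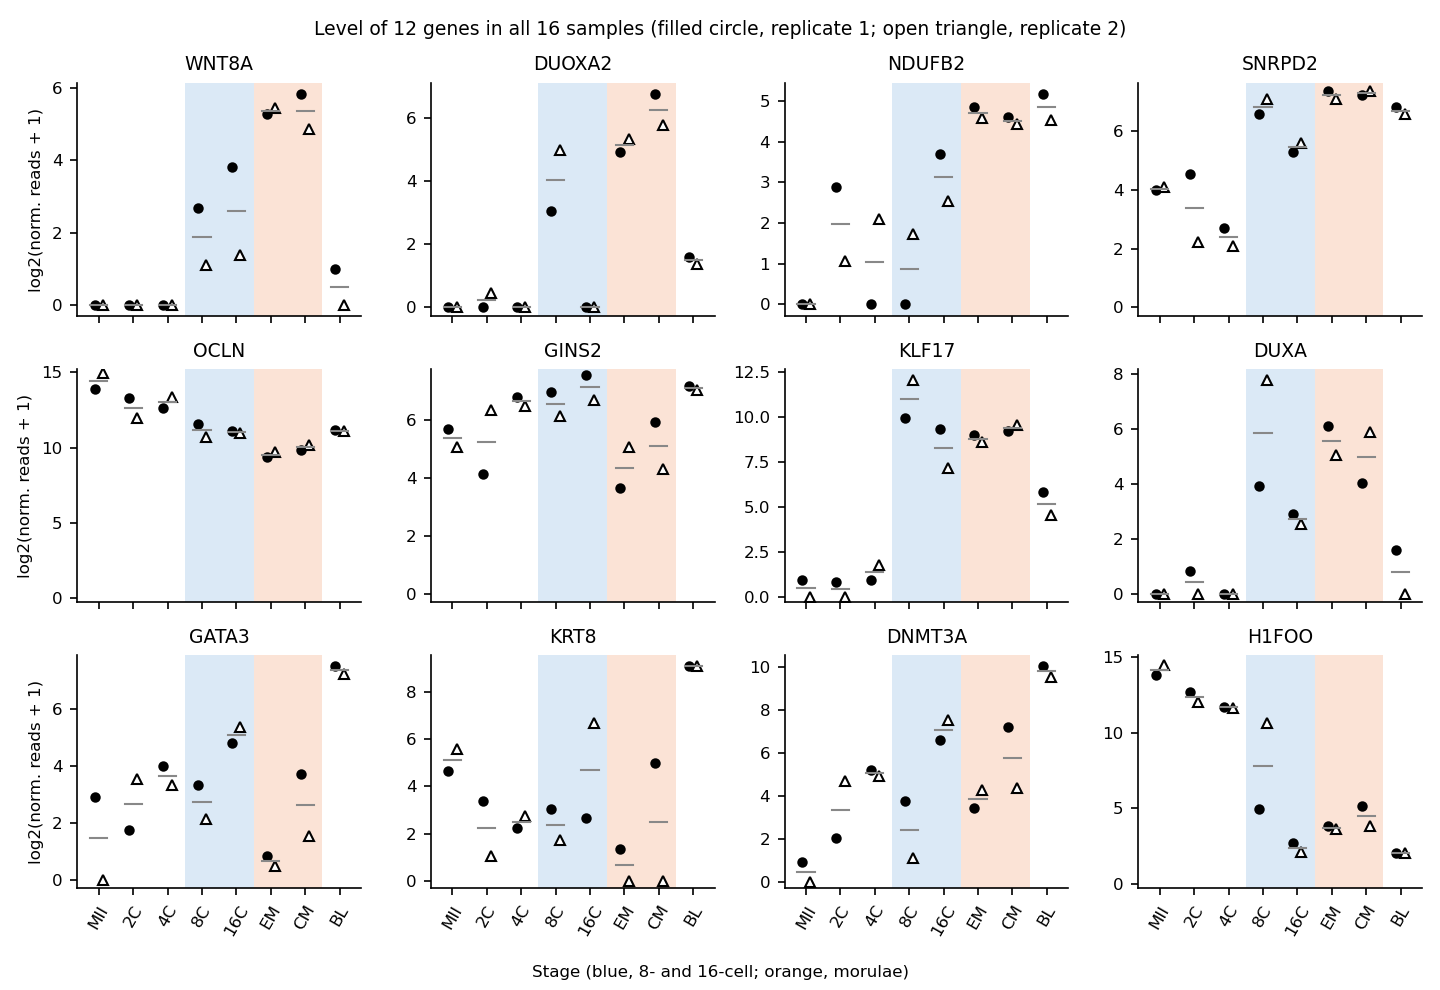
Level of 12 genes, as log2(normalised reads + 1), in all 16 samples by stage, with filled circles for replicate 1, open triangles for replicate 2 and grey bars for the mean of the pair; the 8- and 16-cell stages are shaded blue and the morulae orange. WNT8A, NDUFB2 and SNRPD2 are higher and OCLN and GINS2 lower in each morula than in each cleaving embryo, whereas GATA3, KRT8 and DNMT3A differ within stages.

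Cell junction and polarity genes were examined because the embryo compacts within these 4 stages. Of 46 loci, 28 were tested, 0 were higher (3.64% of all loci) and 1 was lower (4.41%) at an unadjusted p under 0.05, and the median difference was -0.09. The 1 was OCLN, encoding the tight junction protein occludin. It was at 3063 and 1681 normalised reads in 8-cell embryos and 2157 and 2025 in 16-cell embryos, and at 671 and 814 in early morulae and 930 and 1161 in compact morulae. Every morula was below every cleaving embryo (-1.31 ± 0.40, limma adjusted p = 0.474), and DESeq2 called the difference. OCLN was at 3972 to 31553 in MII to 4-cell samples and at 2257 and 2175 in blastocysts, so the lowest levels of the series were in morulae. CDH1, encoding E-cadherin, was at 240 to 796 and then at 236 to 907 (0.19 ± 0.52).

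With 8-cell replicate 2 left out, 6 of the 28 junction and polarity genes were lower (7.62% of all loci) and 0 were higher (6.8%) at an unadjusted p under 0.05. They were OCLN, the catenin CTNNA1, plakoglobin (JUP), the membrane-cytoskeleton linker ezrin (EZR), and the polarity genes MPP5 and PRKCI. EZR was at 238, 60.8, 528 and 560 in cleaving embryos and at 89.7, 68.4, 580 and 65.7 in morulae, and JUP at 326, 104, 250 and 365 and then at 69.6, 56.7, 412 and 60.05. In both genes compact morula replicate 1 was with the 16-cell embryos.

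In the Hippo pathway, 1 of 13 tested members was lower (4.41% of all loci) at an unadjusted p under 0.05 and 0 were higher (3.64%). Without 8-cell replicate 2, 2 were lower (7.62% of all loci) and 0 higher (6.8%), with a median of -0.62 in place of 0.13. The 1 lower member with all 8 samples was AMOT, a scaffold protein that holds YAP1 outside the nucleus. AMOT was at 34.2, 39.0, 18.5 and 46.9 in cleaving embryos and 9.27, 14.9, 8.87 and 14.1 in morulae (-1.44 ± 0.47, limma adjusted p = 0.526). YAP1 (listed as LOC100336629) was at 65.4 to 247 and then at 77.9 to 163. Its DNA-binding partner TEAD4 was at 4.35 to 16.2 and then at 14.7 to 43.2 (1.04 ± 0.56, limma adjusted p = 0.656).

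Of the genes for blastocyst cavity formation, 5 of 14 were tested and 0 were at an unadjusted p under 0.05 (median 0.25, or 0.08 without 8-cell replicate 2). AQP3, a water channel, was at 17.4 to 50.1 in cleaving embryos and 25.5 to 54.4 in morulae. ATP1B1, the sodium pump subunit, was at 9.18 to 21.0 and then 4.69 to 18.8, after 371 to 1289 in MII to 4-cell samples.

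Most subunits of the respiratory chain had positive differences. Of 61 tested subunits of the respiratory chain and ATP synthase, 53 had a difference above 0 (86.9%, beside 57.3% of all loci), and the median was 0.54 (0.86 with samples scaled to total reads, beside 0.44 for all loci). At an unadjusted p under 0.05, 9 were higher (3.64% of all loci) and 0 lower, and 8 were higher without overlap (2.68% of all loci). The median of the 16-cell minus 8-cell step was -0.47, that of the early morula minus 16-cell step 0.61 and that of the last step 0.27. The 8 were NDUFB2, NDUFB4 and NDUFB6 of complex I, COX5A of complex IV, and ATP5C1, ATP5I, ATP5L and ATP5O of the ATP synthase.

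NDUFB2 was at 0 and 2.29 in 8-cell embryos and 11.975 and 4.85 in 16-cell embryos, and at 27.8, 23.1, 23.3 and 20.6 in morulae (2.63 ± 0.79, limma adjusted p = 0.461). NDUFB2 passed the filter on low counts through the morulae, so this difference is a description only. ATP5C1 was at 112 to 133 in cleaving embryos and 194 to 204 in morulae. COX5A was at 39.2 to 81.1 and then 107 to 148. Without 8-cell replicate 2 the list had a median of 0.53, beside 0.067 for all loci, with 8 of 61 higher (6.8% of all loci) and 0 lower (7.62%) at an unadjusted p under 0.05.

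The summed level of the list was 2749, 2836, 1788 and 2911 CPM in cleaving embryos and 3918, 5114, 4102 and 3179 CPM in morulae. 16-cell replicate 1 stood below the rest, and COX5A was lowest there too. In normalised reads the sums were 2519 to 4003 and 3611 to 4435, with 8-cell replicate 1 (4003) among the morulae. Without 16-cell replicate 1, 47 of the 61 subunits were above 0 with a median of 0.47, and 4 were higher (3.98% of all loci) and 0 lower (3.67%) at an unadjusted p under 0.05. The count of higher subunits was 3 with either compact morula left out, 4 without early morula replicate 1 and 6 without early morula replicate 2. It was 11 without 8-cell replicate 1 and 10 without 16-cell replicate 2. With any 1 sample left out, 0 were lower. Over all loci, in either direction, 456 of 6242 and 416 of 5973 differed without compact morula replicates 1 and 2. Without early morula replicates 1 and 2, 318 of 5813 and 307 of 5662 did. Without 8-cell replicate 1, 498 of 6331 did, and without 16-cell replicate 2, 619 of 6214.

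Of 12 tested genes of glucose transport and glycolysis, 11 had a difference above 0, beside 57.3% of all loci, with 0 at an unadjusted p under 0.05 and a median of 0.54. Leaving out 8-cell replicate 2, 8 of the 12 were above 0, with 2 higher (6.8% of all loci) and 0 lower (7.62%) and a median of 0.31. The glucose transporter SLC2A3 was at 133, 216, 145 and 302 in cleaving embryos and 318, 430, 346 and 285 in morulae (0.85 ± 0.40, limma adjusted p = 0.613), and SLC2A1 was at 16.1 to 178 and then 20.9 to 84.2.

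Of 17 tested lipid and sterol genes, 0 were higher (3.64% of all loci) and 1 was lower (4.41%) at an unadjusted p under 0.05, with a median of 0.32. HMGCS1, an enzyme of cholesterol synthesis, was at 16.2, 11.5, 35.9 and 17.8 and then at 3.86, 7.04, 9.97 and 3.75, and at 54.8 and 84.0 in blastocysts. ACSL3, which activates fatty acids at lipid droplets, was at 1023, 80.3, 3296 and 3357 in cleaving embryos and 271, 125, 798 and 452 in morulae. Its difference was -1.56 ± 1.02 (limma adjusted p = 0.71), and -2.75 ± 0.62 without 8-cell replicate 2. In that fit 0 of the 17 were higher (6.8% of all loci) and 2 lower (7.62%).

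Cytosolic ribosomal proteins had a difference above 0 in 64 of 75 tested loci, beside 57.3% of all loci, with a median of 0.29 (0.63 with samples scaled to total reads). At an unadjusted p under 0.05, 2 were higher (3.64% of all loci) and 0 lower, and 1 was higher without overlap (2.68% of all loci). Many of these genes have processed copies elsewhere in the genome, and their reads may be shared with these. The summed level of the list was 15404 and 26346 CPM in 8-cell embryos, 11432 and 13069.6 in 16-cell embryos, 24031 and 23522.5 in early morulae and 25204 and 18343 in compact morulae. On this scale 8-cell replicate 2 was above every morula, and the other 3 cleaving embryos were below all of them. In normalised reads the sums were 12843 to 31414 in cleaving embryos and 16609 to 27247 in morulae, with 8-cell replicate 1 (22429) among the morulae. The log2 ratio of the mean sums was 0.46 in CPM and 0.13 in normalised reads. Without 8-cell replicate 2, 72 of the 75 loci were above 0 with a median of 0.61, 14 were higher at an unadjusted p under 0.05 (6.8% of all loci) and 18 were higher without overlap (7.19% of all loci). Without 16-cell replicate 1, 47 of the 75 were above 0 with a median of 0.11, and 1 was higher. Over all loci in that fit, 3171 of 5555 were above 0 with a median of 0.13, and 3.98% were higher.

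Nucleolus and ribosome biogenesis genes had a median of 0.30 with 0 of 43 at an unadjusted p under 0.05. With 8-cell replicate 2 left out, the median was 0.46, and 5 of the 43 were higher (6.8% of all loci) and 0 lower. Splicing factors had 3 of 42 higher (3.64% of all loci) and 0 lower at an unadjusted p under 0.05, among them SNRPD2, a core spliceosome protein, at 38.1 to 133 and then at 134 to 163. With 1 sample left out, 1 to 4 splicing factors were higher and 0 or 1 lower. Without 8-cell replicate 2, 4 were higher (6.8% of all loci), and without 16-cell replicate 1, 1 was (3.98%). Proteasome and chaperonin subunits had 0 of 36, with a median of 0.14.

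**Figure D4:**
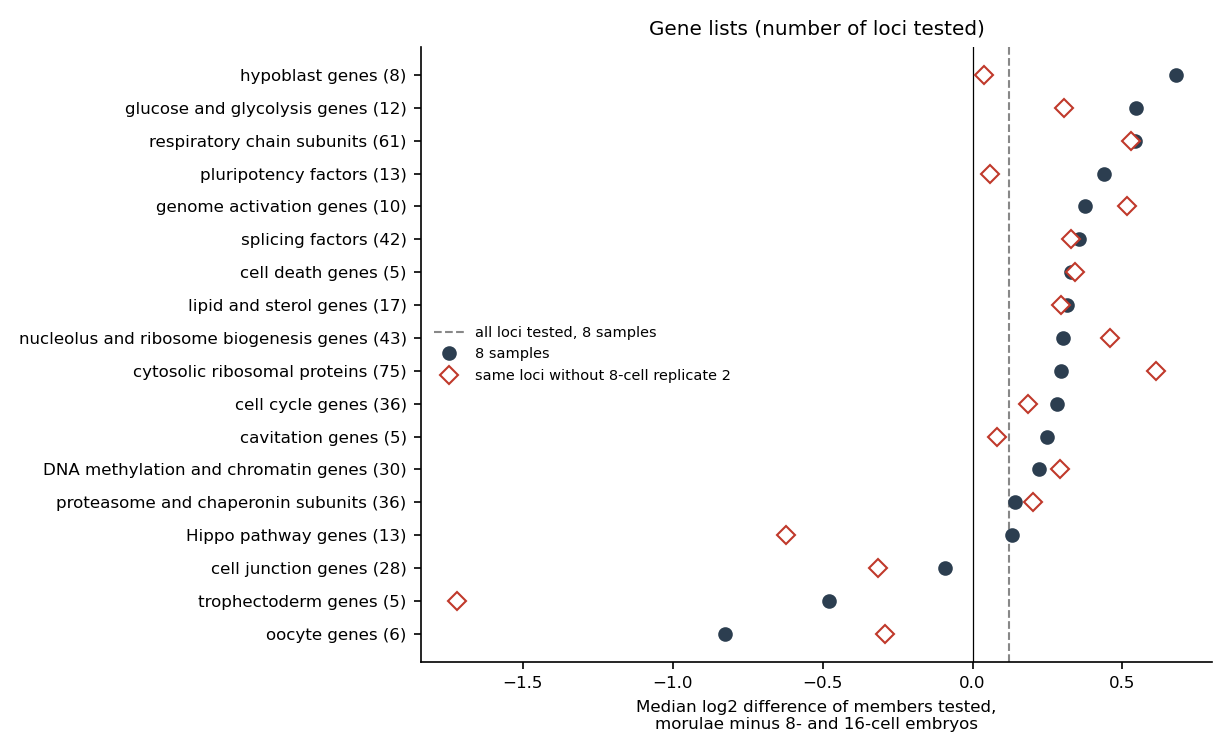
Median log2 difference, morulae minus 8- and 16-cell embryos, over the tested members of each gene list with at least 5 of them. Filled circles are from all 8 samples, open diamonds are for the same loci in 7 samples without 8-cell replicate 2, the numbers in parentheses are the loci, and the dashed line is the median of all loci (0.12). Respiratory chain subunits are at 0.54 and 0.53, ribosomal proteins at 0.29 and 0.61, and the 5 trophectoderm genes at -0.48 and -1.72.

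Single samples also set the sign of some medians. With each of the 8 samples left out in turn, the median was -1.72 to 0.70 for trophectoderm genes (4 or 5 tested), -0.32 to 0.04 for junction genes and -0.62 to 0.42 for the Hippo pathway. It stayed above 0 for the respiratory chain (0.47 to 0.66) and for ribosomal proteins (0.11 to 0.61). This was not particular to these lists, since the median of all loci was itself above 0 (0.12). The list median also stayed above 0 for, among others, splicing factors (0.28 to 0.40) and glucose and glycolysis genes (0.31 to 0.63).

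The study for which these data were used concerned histone variants and the enzymes that modify histones and DNA. A related list held 49 loci: DNA methyltransferases and TET enzymes, Polycomb genes and histone demethylases, and histone variants and chaperones. Of these, 30 were tested, with 1 higher (3.64% of all loci) and 2 lower (4.41%) in morulae at an unadjusted p under 0.05 and a median of 0.22. These counts are near those of all loci. Leaving out 8-cell replicate 2, 3 of the 30 were higher and 4 lower (6.8% and 7.62% of all loci). H2AFV, a variant of histone H2A, had a mean of 61.3 ± 35.8 (SD, n = 4) normalised reads in cleaving embryos and 119 ± 28.4 in morulae, with a limma difference of 1.12 ± 0.48. The H3.3 genes H3F3A and H3F3B had differences of 0.65 ± 0.47 and 0.49 ± 0.37.

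The 2 lower members were histone demethylases. KDM1B, which acts on lysine 4 of histone H3, was at 21.6, 40.1, 23.9 and 9.70 in cleaving embryos and at 0, 0, 2.22 and 5.63 in morulae (-3.38 ± 0.90, limma adjusted p = 0.337), and it was among the 20 loci above. KDM1B passed the filter on low counts through the 8- and 16-cell embryos alone, so its difference and calls are given as a description only. KDM6A, which acts on lysine 27, was at 27.0, 18.4, 28.3 and 43.7 and then at 8.50, 17.6, 5.54 and 15.9 (-1.29 ± 0.51, limma adjusted p = 0.544). Each morula was below each cleaving embryo in both. The Polycomb methyltransferase EZH2 had a difference of 0.41 ± 0.40.

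Among the DNA-modifying enzymes, TET1 (listed as LOC513640), which oxidises 5-methylcytosine, was at 1348 to 4978 in cleaving embryos and 2185 to 3260 in morulae, with a difference of 0.00 ± 0.47. TET3, of the same family, was too low for the filter on 8 samples, at 5.40, 16.1, 2.18 and 11.3 in cleaving embryos and at 0, 0, 1.11 and 0 in morulae, or 0 to 1 reads in each morula, after 87.9 to 324 in MII to 4-cell samples. Limma on all 16 samples called TET3 lower in morulae (-2.75 ± 0.55), but it passed that filter through its reads in the earlier stages, so the call is given as a description only. DNMT1, the maintenance methyltransferase, was at 1.80 to 6.65 in the 8 samples. DNMT3B was listed at 0 in all 16 samples of this table, which does not show that it was not transcribed. The study named above did report DNMT3B mRNA in embryos of this series, with a passing rise around EGA.

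Of 36 tested cell cycle genes, 2 were at an unadjusted p under 0.05, 1 higher and 1 lower (3.64% and 4.41% of all loci), so that the group was near the share of all loci. GINS2, a part of the helicase that opens DNA for replication, was at 124, 70.0, 191 and 103 in cleaving embryos and at 11.6, 32.5, 60.9 and 18.8 in morulae, without overlap (-2.11 ± 0.53, limma adjusted p = 0.328). It was back at 144 and 133 in blastocysts. RRM2, the small subunit of the reductase that makes deoxynucleotides, was at 79.3, 19.5, 109 and 142 and then at 154, 236, 254 and 172 (1.49 ± 0.56, limma adjusted p = 0.532). Without 8-cell replicate 2, 3 of the 36 were higher (6.8% of all loci) and 1 lower (7.62%). CDK4 was also lower without overlap, at 201 to 274 and then 138 to 194. The locus with the most reads in the 8 samples was ODC1, the first enzyme of polyamine synthesis, at 18112 to 69668 normalised reads in cleaving embryos and 10871 to 50790 in morulae (-0.79 ± 0.66, limma adjusted p = 0.762).

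The steps between adjacent stages were tested in the same fit over 4 stage means (7107 loci), with 0 loci past an adjusted p of 0.05 in limma for each step. From the 8- to the 16-cell stage, 1167 loci (16.4%) differed at an unadjusted p under 0.05. From the 16-cell stage to the early morula 743 did (10.5%), and from early to compact morula 324 (4.56%). DESeq2 called 106, 85 and 1 loci in these steps. The 1 was HBEGF, a growth factor of the epidermal growth factor family. With 8-cell replicate 2 left out, 1306 of 8413 loci differed in the first step at an unadjusted p under 0.05, and limma called 0. With 8-cell replicate 1 left out, 2187 of 8687 did, and limma called 349. In each of these fits the 8-cell stage was a lone sample that was assumed to vary like the other stages. Which steps differed from each other in size was not tested.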

How the data were processed

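RNA was extracted from individual oocytes and embryos, amplified in 2 rounds and sequenced as SOLiD libraries, per the labels. The submitters' processing notes name cutadapt, FastQC, TopHat, Cufflinks and HTSeq, without roles or versions; the genome build is not given in the sources used here. The deposited signal was a table of reads per locus that the authors had divided by a size factor for each sample. Whole reads were recovered from it (100% of values above 0 were within 0.02 of a whole number of reads). Log2(deposited value + 1) was tested with limma 3.58.1 (eBayes with trend, R 4.3.3) after edgeR's filterByExpr, with Benjamini-Hochberg adjustment at 0.05. edgeR 4.0.16 (quasi-likelihood) and DESeq2 1.42.0 (both on the recovered reads), other scalings, pseudocounts and filters and left-out samples were alternatives. The table held signal values and not counts, so limma was the main test. Scripts were tested on simulated data.

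List symbols were matched to the table by name (722), by RefSeq synonym (17; ARS-UCD2.0, names only) or not at all (29). Named genes were 31 set markers, of which LEUTX and KDM4E were not found, the locus with the most reads, and the loci past the adjusted threshold with the largest differences, overall and per list, of which there were none; all other genes were chosen after their values were seen. The comparison and the 22 gene lists were chosen with earlier results of these data known. No sequence or genome of these loci was used here. CPM is reads per 1000000 reads of the sample. Depth limits low genes: 3 reads equal 1.17 to 5.40 normalised reads, depending on the sample, for counting error only.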

Additional observations from a re-analysis of the deposited data

Results flagged for a closer look

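Within the 4 samples of each period, 198 groups of 4 values were examined for 1 sample far from the other 3 (Dixon's ratio at the 95% level), and 33 were found; chance alone gives about 1 in 20. No explanation was tested. In 8-cell replicate 2, high values were found for NANOG (84.9 normalised reads), SOX2 (8.03), H1FOO (1606), GDF9 (20.6), NLRP5 (17.2), DUXA (221), LOC100850450 (206) and CUFF.80780.1 (330.3), and the summed oocyte genes were at 2186 CPM against at most 324 in the other 3 cleaving embryos. In compact morula replicate 1, high values were found for GATA3 (12.2), KRT8 (31.0), H1FOO (34.4), NLRP5 (4.43), DNMT3A (146) and DBI (111.9) and for the summed Hippo pathway genes (2895 CPM, against at most 952), and low values for ARGFX (51.0) and the summed genome activation genes (1541 CPM, against at least 3406).

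In 16-cell replicate 2, KRT8 (100.3), KRT18 (111.6) and the summed cavitation genes (285 CPM) were high. In 16-cell replicate 1, CECR2 (188) and ENDOU (21.8) were high, and COX5A (39.2) and the summed respiratory chain subunits (1788 CPM, against at least 2749) were low. SLC2A1 was high in 8-cell replicate 1 (178). Early morula replicate 2 had high YAP1 (163), FAM208B (21.9), CUFF.33033.1 (21.9) and summed oocyte genes (279.6 CPM). Early morula replicate 1 had low PDGFRA (51.0) and a sum of sperm markers of 9.81 CPM, and compact morula replicate 2 had a low sum of trophectoderm genes (141 CPM).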

How the results depend on the processing

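The count of 0 loci past the threshold became 62 with DESeq2 (249 loci had no adjusted p), 46 with all 16 samples, 1 without both 8-cell samples and 3 without both compact morula samples; leaving out 1 sample gave 0 to 5 (5 without compact morula replicate 1: ANGPTL1, HBEGF, LOC100850450, LOC538992 and CUFF.80780.1; 1 without early morula replicate 2: FAM208B), and it stayed 0 under the other alternatives. For the 16-cell minus 8-cell step the counts were 106 (DESeq2), 83 (all 16 samples) and 0 to 349 with 1 sample left out; for the early morula minus 16-cell step 85, 10 and 0 to 9; for the last step 1 (DESeq2) and 0 to 0. Loci without overlap, counted again after seeing the data with 1 sample left out, numbered 404 to 824, since fewer samples overlap less often. The replicate numbers did not pair the samples (deviations of same-numbered samples correlated at -0.13 to 0.20), and the fit with a replicate block called 0 loci (441 at an unadjusted p under 0.05). The differences of 12 named genes changed sign under at least 1 alternative (40 of 1484 values of a gene under an alternative); the cause was not tested. With DESeq2 and edgeR these were ARGFX (-0.057 and -0.0025), DNMT3A (-0.71 and -0.67), DUXA (-0.57 and -0.52), NANOG (-0.50 and -0.44), SLC2A1 (-0.31 and -0.26) and TET1 (-0.20 and -0.14). With total reads EIF1AX was at 0.011 and YAP1 at 0.0087, with TMM factors TET1 was at -0.0039, and with a pseudocount of 5 DNMT3A was at -0.17. Without both 8-cell samples DNMT3A was at -2.26, H1FOO at 1.72, KLF17 at 0.84 and TET1 at -0.55; without both compact morula samples DNMT3A was at -0.89, SLC2A1 at -0.11 and TET1 at -0.0068. With 1 sample left out the ranges were -0.16 to 0.55 for CDH1, -1.15 to 1.00 for DNMT3A, -0.65 to 0.056 for EIF1AX, -2.004 to 0.85 for H1FOO, -1.35 to 0.27 for KLF17, -1.72 to 0.60 for KRT18, -0.13 to 0.9988 for SLC2A1, -0.32 to 0.30 for TET1 and -0.62 to 0.014 for YAP1.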
